A study of Mus musculus with 2 samples.

Results

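The cells described here are resting CD8 T cells from mouse tumours whose transcripts include 3 inhibitory receptors at once: Pdcd1, which encodes PD-1, Havcr2, which encodes TIM-3, and Lag3. They were chosen barcode by barcode from the counts. A barcode entered if it had at least 500 detected genes, a mitochondrial share of UMIs (unique molecular identifiers, each a counted transcript) under 10%, at least 1 UMI of Cd3d, Cd3e or Cd3g and at least 1 UMI of Cd8a or Cd8b1. It also needed at least 1 UMI of Pdcd1, at least 2 of Havcr2 and at least 2 of Lag3. It could hold no UMI of the proliferation genes Mki67 and Top2a, and granzymes C and F together had to stay under 40 UMIs per 10000. The rule found 882 barcodes, 502 from control and 380 from NK-depleted mice, among 15065 CD3+CD8+ barcodes and 17977 deposited barcodes. They are called members below.

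T cells that keep meeting their antigen in a tumour or a chronic infection can enter a state called exhaustion. A progenitor state, marked by the transcription factor TCF-1 (Tcf7) and the surface receptor Slamf6, renews itself and gives rise to terminally exhausted cells, which carry PD-1 together with TIM-3 and LAG-3, divide less and have lost TCF-1. Antibodies that block PD-1 or its ligand act largely through the progenitor cells, and TOX is the factor best known for installing the exhausted state. Tumour CD8 T cells that have just met antigen can carry the same 3 receptors, because all of them are also induced by T cell receptor signalling.

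Both libraries hold live CD8+ cells sorted by flow cytometry from MC38 tumours, 9 days after the tumour cells were implanted into wild-type mice. MC38 is a mouse colon carcinoma line. The control mice are labelled PBS, while the name of their library carries the abbreviation Iso, and the NK-depleted mice received an a-NK1.1 antibody, which removes natural killer (NK) cells. The question was what NK cells do to the differentiation of CD8 T cells. NK1.1 is also carried by some T cells, and how many mice or tumours stand behind a library is not stated in the labels. Each group is a lone library, so no difference between the groups has a replicate check, no test was made, and every interval is a 95% interval for counting error only. UMIs of a gene can cluster in few cells, so that intervals of such genes are too narrow.

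The first marker genes of the population that the rule did not use were Csf1, Tnfrsf4 and Rgs16, and the chemokine gene Ccl3 was among the genes with the largest differences. Their promoters are shown because each of the 4 genes was high in the members taken as a pool. Across single members, rank correlations were 0.03 and 0.15 for Csf1 with Tnfrsf4 in the control and NK-depleted library. For Ccl3 with Rgs16 they were 0.18 and 0.26. Each sequence gives the 250 bases before the annotated start of the gene from RefSeq (GRCm38.p6), 5′ to 3′ on the strand of the gene, with the NFAT core motif GGAAA, read on either strand and so also as TTTCC, in capitals. The windows are chr11:83649379-83649628 on the minus strand for Ccl3, chr1:153740103-153740352 on the plus strand for Rgs16, chr3:107760470-107760719 on the minus strand for Csf1 and chr4:156013445-156013694 on the plus strand for Tnfrsf4.
Ccl3: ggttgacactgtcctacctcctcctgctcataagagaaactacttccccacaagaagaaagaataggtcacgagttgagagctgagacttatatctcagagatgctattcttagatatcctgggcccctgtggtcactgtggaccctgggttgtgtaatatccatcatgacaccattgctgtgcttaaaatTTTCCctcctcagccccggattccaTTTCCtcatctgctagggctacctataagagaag
Rgs16: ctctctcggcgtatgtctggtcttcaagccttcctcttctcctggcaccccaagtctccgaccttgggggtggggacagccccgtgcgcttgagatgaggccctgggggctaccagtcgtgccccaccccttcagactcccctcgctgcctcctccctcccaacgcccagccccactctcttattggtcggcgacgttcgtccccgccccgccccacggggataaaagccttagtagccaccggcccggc
Csf1: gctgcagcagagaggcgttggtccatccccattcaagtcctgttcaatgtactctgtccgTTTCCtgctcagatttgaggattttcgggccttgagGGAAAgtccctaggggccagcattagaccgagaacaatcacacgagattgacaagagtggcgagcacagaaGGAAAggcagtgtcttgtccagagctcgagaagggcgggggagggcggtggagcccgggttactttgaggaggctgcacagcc
Tnfrsf4: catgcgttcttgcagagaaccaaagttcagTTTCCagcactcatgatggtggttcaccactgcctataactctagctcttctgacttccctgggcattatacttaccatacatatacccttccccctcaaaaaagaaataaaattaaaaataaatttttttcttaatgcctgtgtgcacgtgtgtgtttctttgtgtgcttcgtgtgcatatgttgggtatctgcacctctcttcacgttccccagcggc
The Ccl3 window held 2 NFAT cores, 59 and 34 bases before the start, and the Csf1 window held 3, at 190, 154 and 83 bases. The Tnfrsf4 window held 1, at 220 bases, and the Rgs16 window held 0. The AP-1 motif TGANTCA, which reads the same on both strands and was searched apart from the NFAT core, was in 0 of the 4. Of 27025 RefSeq promoters cut to the same length, 55.6% held the NFAT core, 6.87% the AP-1 motif and 3.87% both, so that NFAT letters are common in such windows. A match is a description of letters and no binding was measured.

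Members were deeper than the other resting CD3+CD8+ barcodes, meaning those without a UMI of Mki67 or Top2a (2970 and 2557 barcodes). The median of members was 14359.5 UMIs for control and 11827.5 for NK-depleted mice, against 8674.5 and 8647 in the other resting barcodes. All other CD3+CD8+ barcodes, cycling ones included, had medians of 11131 and 12314, so that NK-depleted members were not deeper than these. Over all CD3+CD8+ barcodes the libraries held 106462391 and 125332343 UMIs, with medians of 11444 and 12289.5. The median mitochondrial share of members was 2.40% and 2.52%. The 2 libraries share 391 barcode sequences, of few UMIs (medians of 939 and 658), and 0 members are among them. Cells of other types were looked for through marker lists. MHC class II genes (H2-Aa, H2-Ab1, H2-Eb1 and Cd74), which belong to dendritic cells and other antigen-presenting cells, reached 10 UMIs in 4 of 502 control members and 6 of 380 NK-depleted members. These 10 barcodes held 78.7% and 97.8% of all MHC class II UMIs of the members and had medians of 28595 and 32838 UMIs. No doublet caller was run, so doublets remain, and results that rest on these barcodes are given with and without them. No member carried 2 T cell receptor beta V segments of 3 UMIs or more each. Any UMI of such a segment was found in only 268 of 502 control and 145 of 380 NK-depleted members. Doublets could therefore easily be missed this way.

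Defining markers of most other cell types were low or absent. The 10 macrophage markers summed to 15.2 CPM (UMIs of a gene per 1000000 UMIs of the population) in control members and 40.4 CPM in NK-depleted members, against 37.7 and 27.1 CPM in the other resting barcodes, with 2 and 0 markers at 0. The 12 dendritic cell markers summed to 448 and 903 CPM, against 536 and 335 CPM in the other resting barcodes. In members they were led by Cst3 and Cd74. Of 7 neutrophil markers 5 were at 0 in members of both libraries. The sums of 26.2 and 47.4 CPM were almost wholly Il1r2, a decoy receptor for interleukin 1. In the other resting barcodes the sums were 16.5 and 14.8 CPM. The 8 NK cell markers summed to 192 and 214 CPM against 175 and 193 CPM in the other resting barcodes, led by Klre1. The 5 gamma delta T cell markers measured summed to 11.04 and 12.7 CPM, with 2 at 0 in each library. CD4 or regulatory T cell markers reached 55.9 and 65.6 CPM, against 28.6 and 29.2 CPM in the other resting barcodes. B cell markers reached 42.4 and 33.5 CPM, tumour epithelium 11.2 and 9.60 CPM and endothelium 15.2 and 10.97 CPM. These lists and the gamma delta list, but not the CD4 list, lay lower in members than in the other resting barcodes. Fibroblast markers stayed under 1 CPM. Erythroid markers were at 0.368 CPM and at 0.

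The genes of the rule describe how strongly members carried them. Havcr2 had a median of 4 UMIs per member in both libraries, with maxima of 29 and 24. Lag3 had medians of 10 and 8 UMIs and Pdcd1 of 5 and 4. The CD8 genes stood well clear of their threshold, with medians of 17 and 13 UMIs for Cd8a and of 19 and 14 for Cd8b1. Many members sat at the edge for Havcr2, 111 of 502 and 94 of 380 at exactly 2 UMIs. Fewer did for Lag3, 27 and 25 at exactly 2 UMIs, while 69 and 59 had exactly 1 UMI of Pdcd1. Pooled over barcodes, Havcr2 stood at 343 CPM in control members and 370 CPM in NK-depleted members, against 26.3 and 55.1 CPM in the other resting barcodes, a gap that the rule itself sets.

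The label, terminally exhausted-like, was set against markers outside the rule, with earlier results known. Csf1, Tnfrsf4 and Rgs16 were named as markers of this population beforehand, so they describe it and do not support the label. Of 8 such markers measured in both libraries (at least 20 CPM in the members or the other resting barcodes), 6 were at least 1.5-fold higher in members and 0 lower. Over all measured genes 4.46% were higher in both libraries and 3.12% lower. The 6 markers were Entpd1, Ctla4 and Id2, and the previously named Csf1, Tnfrsf4 and Rgs16. Tox was not among them, with 67.7 CPM in control members against 78.9 CPM in the other resting barcodes and 29.8 against 27.3 CPM in the NK-depleted library. Of the 5 progenitor exhausted markers measured in both, 4 were lower and 0 higher, and of 7 naive or central memory markers 5 were lower and 0 higher. The progenitor list was not uniform in the control library. Against all other CD3+CD8+ barcodes its marker Xcl1 was at a ratio of 1.495 there and at 0.323 in the NK-depleted library. Because Tox was not high, the cells are called members here. Against all other CD3+CD8+ barcodes the control ratios of Entpd1 and Id2 were 1.47 and 1.44, under the threshold. Against the other resting barcodes, members also had high Ifng, Gzmb, Prf1, Ccl3 and Ccl4 transcripts, which T cells make on antigen contact. Against all other CD3+CD8+ barcodes Gzmb was at 1.15-fold in the control library. The highest 10% of members held 76.4% and 78.2% of the Ccl3 UMIs. T cell receptor response genes went both ways against the other resting barcodes, with 7 of 23 higher in each library and 3 and 4 lower. Slamf6 was still detected in 118 of 502 control members and 61 of 380 NK-depleted members, and Tcf7 in 56 and 28.

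Members made up a smaller share of CD8 T cells in the NK-depleted library. They were 7.27% of control CD3+CD8+ barcodes (interval 6.67% to 7.91%, exact Clopper-Pearson) and 4.65% of NK-depleted ones (4.21% to 5.13%). When every barcode was thinned to 5500 UMIs and the rule applied again, the shares were 5.26% (4.72% to 5.84%) and 3.83% (3.40% to 4.29%). That left out 655 and 780 shallower barcodes, and 6198 and 7293 still met the CD3 and CD8 terms. Shares within resting cells lay closer together, where members were 14.5% (13.3% to 15.7%) and 12.9% (11.7% to 14.2%), and 8.31% and 7.84% after thinning. Resting cells themselves were 50.3% of control CD3+CD8+ barcodes and 35.98% of NK-depleted ones (63.3% and 48.8% after thinning). The inhibitory receptor and granzyme terms alone, whether cycling or not, were met by 24.8% and 22.5% of CD3+CD8+ barcodes. Among the barcodes that met them, 29.3% of the control and 20.7% of the NK-depleted barcodes were resting. After thinning, the receptor and granzyme terms were met by 8.73% and 7.75% of CD3+CD8+ barcodes, of which 60.3% and 49.4% were resting. In relative terms the gap between the libraries was thus wider for the resting term than for the receptor terms, though by less after thinning. The share called resting itself depended strongly on depth. For comparison, naive-like barcodes with UMIs of Ccr7 and S1pr1 met the rule in 4.06% (29 of 714) and 1.42% (13 of 916) of cases, and in 0.572% and 1.35% at the thinned depth. The order of the libraries differed between the 2 depths.

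**Figure D1:**
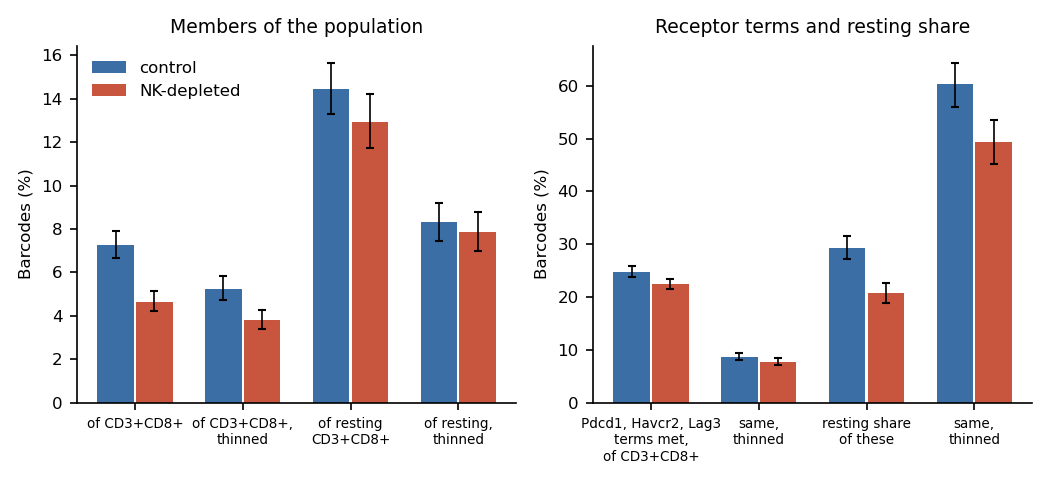
Share of members, in percent, by denominator and library, unthinned and after thinning each barcode to 5500 UMIs, with the receptor terms and the resting term shown apart; bars are exact Clopper-Pearson 95% intervals for counting error. The share of CD3+CD8+ barcodes was 7.27% in the control and 4.65% in the NK-depleted library, while the share of resting barcodes was 14.5% and 12.9%.

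Members were set against the other resting CD3+CD8+ barcodes of their own library, gene by gene, as pooled CPM. The 12 genes of the rule were left out. Because the rule divides the same cells, these differences are a description and nothing is read from their number. In the control library 332 of 5654 measured genes (5.87%) were at least 1.5-fold higher in members and 375 (6.63%) lower. The NK-depleted library had 398 of 5488 (7.25%) higher and 239 (4.35%) lower. In both libraries at once 239 of 5359 genes (4.46%) were higher and 167 (3.12%) lower. The median gene differed by -0.01 and 0.05 on the log2 scale.

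**Figure D2:**
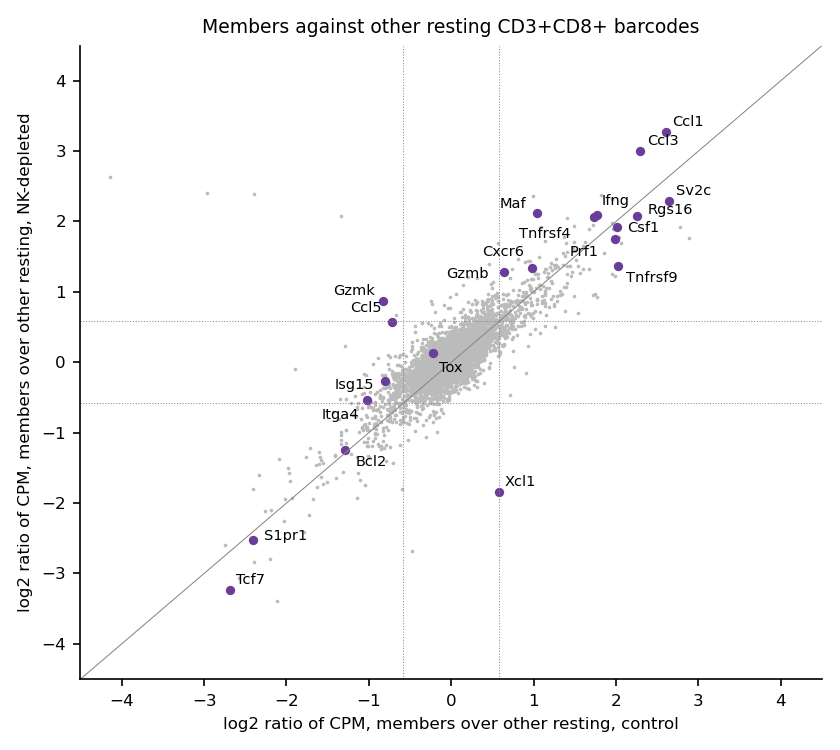
Log2 ratio of pooled CPM in members over other resting CD3+CD8+ barcodes for each measured gene, control library on the x axis and NK-depleted library on the y axis, with dotted lines at a ratio of 1.5 either way. Rgs16, Ccl3, Csf1, Tnfrsf4 and Prf1 lie high in both libraries, at 4.77-fold and 4.20-fold for Rgs16, and Tcf7 lies low in both, at ratios of 0.156 and 0.106.

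Some costimulatory and inhibitory receptor genes stood high in members, 4 of the 12 TNF receptor and CD28 family costimulators and 3 of the 6 inhibitory receptors outside the rule. Tnfrsf4, which encodes the costimulatory receptor OX40, was at 167 CPM in control members against 50.3 CPM in the other resting barcodes (3.32-fold, interval 3.08 to 3.58) and at 221 against 53.1 CPM in the NK-depleted library (4.17-fold, 3.84 to 4.52). Tnfrsf9, which encodes the activation-induced receptor 4-1BB, was at 471 against 116 CPM (4.07-fold) and 550 against 213 CPM (2.59-fold). Icos, a CD28 family costimulator, was 2.79-fold and 2.98-fold higher, and Tnfrsf18, which encodes GITR, 1.89-fold and 1.94-fold. Among the costimulators 1 was lower, Cd7 (named after its value was seen), and the other 7 measured in both libraries were not called in both. Among the inhibitory receptors 1 was lower. Ctla4 stood at 338 against 161 CPM and 312 against 110 CPM, and the lectin-like inhibitory receptor subunit Klrc1 was 2.37-fold and 1.74-fold higher. Lilrb4a, an inhibitory receptor of the immunoglobulin family, was lower, at ratios of 0.623 and 0.626. Entpd1, whose product CD39 breaks down extracellular ATP, was 2.02-fold and 2.38-fold higher. Cd38 differed in the NK-depleted library, at a ratio of 1.75, but not in the control library, at 0.942. Tigit stayed under 20 CPM.

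Rgs16, Csf1 and Ccl3 illustrate the secreted and signalling genes. Rgs16, a brake on G protein-coupled receptors such as chemokine receptors, was at 523 against 110 CPM in the control library (4.77-fold, 4.56 to 4.999) and 430 against 102 CPM in the NK-depleted library (4.20-fold, 3.97 to 4.46). Csf1, the macrophage growth factor M-CSF, was at 107 against 26.6 CPM (4.02-fold, 3.64 to 4.43) and 90.7 against 24.1 CPM (3.77-fold, 3.33 to 4.27). Of 10 cytokine and chemokine genes measured in both libraries 6 were higher and 1 lower, with median log2 ratios of 1.33 and 1.67. The gene of the inflammatory chemokine Ccl3 was at 530 against 108 CPM and 546 against 68.2 CPM, and Ccl4 was 3.49-fold and 4.25-fold higher. Ccl1, a ligand of CCR8, was 6.1-fold and 9.63-fold higher. Ifng was at 800 against 234 CPM (3.42-fold) and 809 against 191 CPM (4.25-fold). Tnf differed the same way, at 21.7 against 11.7 CPM and 28.2 against 10.5 CPM. Areg, an epidermal growth factor family ligand, was at 22.6 against 11.4 CPM and 27.4 against 5.36 CPM.

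Of 15 granule genes measured in both libraries, 5 were higher in members and 0 lower, to unequal extents. Prf1, which encodes the pore-forming perforin, was 3.97-fold higher in control members (526 against 133 CPM) and 3.37-fold higher in NK-depleted members (712 against 212 CPM). Gzmb was at 2397 against 1535 CPM (1.56-fold) and 4222 against 1735 CPM (2.43-fold). The control value for Gzmb is near the threshold, with log2 ratios of 0.64 pooled and 0.20 against all other CD3+CD8+ barcodes. Gzma was 1.101-fold and 2.15-fold higher. The 10 granule genes that remain were not called in both libraries. Serpinb9 and Serpinb6b, protease inhibitors that shield the cell from its own granule proteases, were higher at 2.54-fold and 1.96-fold and at 2.58-fold and 2.10-fold. Genes less familiar in T cells were among the 12 with the largest ratios. They included Sv2c, a synaptic vesicle protein gene (6.26-fold and 4.88-fold), Neb, the gene of the giant muscle protein nebulin (6.86-fold and 3.77-fold), and Rgs8 (7.36-fold and 3.40-fold). Cx3cr1, the fractalkine receptor, stood at 117 against 30.2 CPM and 95.03 against 24.1 CPM. Nrgn, the calmodulin-binding neurogranin, stood at 140 against 35.8 CPM and 73.1 against 19.6 CPM.

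Of 17 transcription factors on the exhaustion list 9 were higher in both libraries and 1 was lower, with median log2 ratios of 0.74 and 0.86. Prdm1, which encodes Blimp-1, was 2.59-fold and 3.42-fold higher, and Irf4, induced in proportion to T cell receptor signal, 2.41-fold and 2.75-fold. Maf was 2.06-fold higher in the control library, at 36.5 against 17.7 CPM, and 4.36-fold in the NK-depleted library, at 76.8 against 17.6 CPM. Nr4a3 was 2.41-fold and 2.61-fold higher, Zbtb32 3.91-fold and 3.32-fold, and Id2 1.77-fold and 2.04-fold. Eomes, a factor of memory and exhausted CD8 T cells, was lower, at ratios of 0.661 and 0.288. Of 13 progenitor and stem genes 7 were lower in both libraries and 0 higher. Tcf7 stood at 19.9 against 128 CPM (ratio 0.156, 0.132 to 0.182) and 12.5 against 118 CPM (ratio 0.106, 0.0813 to 0.136). Slamf6 was at ratios of 0.395 and 0.448 and Lef1, the partner of TCF-1, at 0.375 and 0.401. S1pr1, the receptor for egress from lymphoid tissue, was low as well, at ratios of 0.189 and 0.173. Klf2, the factor that drives it, was at 0.313 and 0.259. Tnfsf8, the CD30 ligand, was at 0.168 and 0.120, and Dapl1 at 0.149 and 0.165.

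Other groups of genes separated members from the remaining resting cells less evenly. Of 21 glycolysis and hypoxia genes 14 were higher in both libraries and 0 lower, with median log2 ratios of 0.79 and 0.86. Examples are Tpi1, a glycolytic enzyme, at 248 against 117 CPM and 391 against 182 CPM, the lactate exporter Slc16a3 (2.80-fold and 3.28-fold) and the lactate dehydrogenase gene Ldha (1.76-fold and 1.83-fold). Of 24 oxidative phosphorylation genes 0 were past 1.5-fold in both. The S100, annexin and galectin list had 6 of 15 higher and 0 lower. Among 14 survival genes 3 were higher, among them the near-identical Bcl2a1b and Bcl2a1d, whose reads cannot be told apart with certainty, and 1 was lower, Bcl2, at ratios of 0.409 and 0.423. Il2ra, the alpha chain of the high-affinity interleukin 2 receptor, was 2.91-fold and 2.58-fold higher, while Il7r was at ratios of 1.17 and 1.19. Of 9 chemokine receptors 2 were higher and 3 lower. Cxcr6, a receptor of tissue and tumour T cells, was 1.97-fold and 2.52-fold higher, and Cxcr3 was at ratios of 0.305 and 0.429. Of 22 type I interferon response genes measured in both, 0 were higher and 6 lower. The control library contributed 19 lower genes of 23 measured and the NK-depleted library 6 of 22. Isg15 showed this, at 584 against 1024 CPM (ratio 0.571) in the control library and 531 against 638 CPM (0.832) in the NK-depleted library. Iigp1, an interferon-inducible GTPase, was at ratios of 0.295 and 0.392. Cd69, the early activation and retention receptor, was lower in members, at ratios of 0.524 and 0.522.

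The remaining lists held genes on both sides or few calls. Of 23 T cell receptor response genes 5 were higher in both libraries, among them the phosphatase genes Dusp4 and Dusp5, and 3 lower, namely Fos, Myc and Cd69. The interleukin 2 and STAT5 list had 5 of 14 higher and 3 lower, and the interferon gamma list 1 of 19 higher, the transcription factor gene Irf8, and 2 lower. Circulating effector genes had 2 of 9 higher, Cx3cr1 and Zeb2, and 4 lower. Of 12 residency and TGF beta response genes 1 was higher and 1 lower, and of 13 heat shock and dissociation genes 0 were higher and 1 lower. The phosphatase and RGS list had 3 of 11 higher, the ectoenzyme list 1 of 4 and the S phase list 1 of 12, with 0 lower in each. Of 5 cholesterol and lipid synthesis genes 0 were called, and of 4 Ifitm genes 1 was higher and 1 lower. Of the lists with a single measured gene, the metallothionein Mt1 and the mitosis gene Ube2c were higher.

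**Figure D3:**
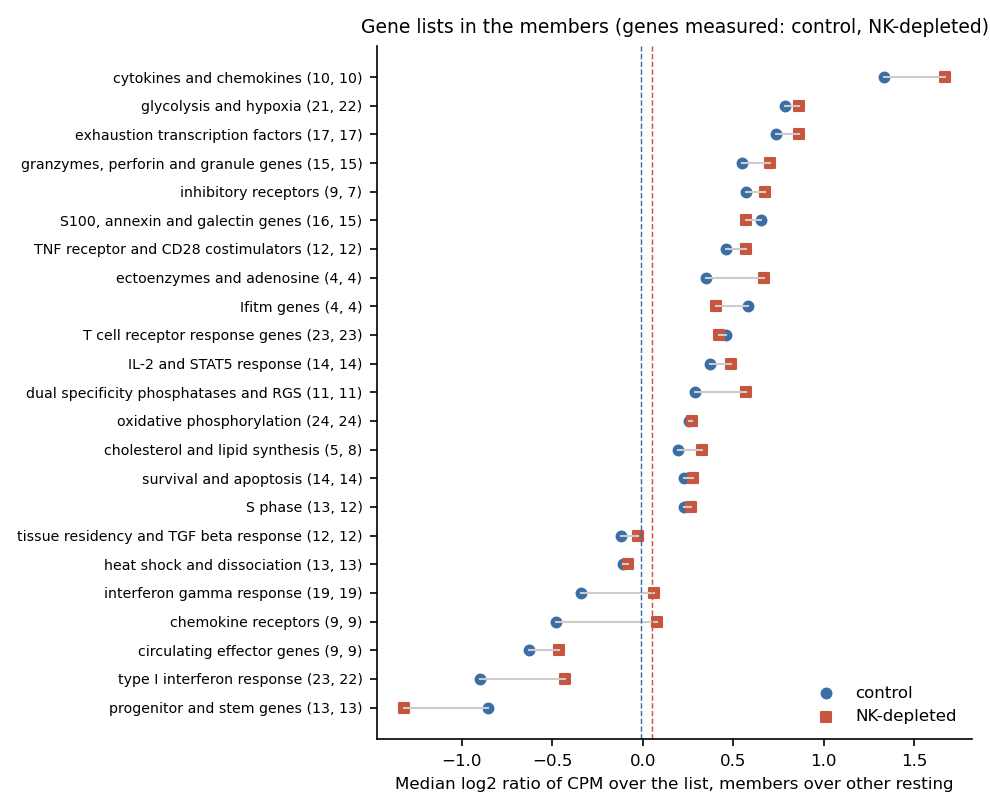
Median log2 ratio of members over other resting CD3+CD8+ barcodes for 23 gene lists, by library, with the number of genes measured and a dashed line at the median of all measured genes. Cytokines and chemokines lie farthest to the right at 1.33 and 1.67, and progenitor and stem genes far to the left at -0.86 and -1.32.

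Part of these differences depended on leaving cycling cells out of the comparison. Against all other CD3+CD8+ barcodes, cycling ones included, the number of genes past 1.5-fold in the control library was 466 in place of 707. In the NK-depleted library the number was larger, at 684 (203 higher and 481 lower) in place of 637. Median log2 ratios of the glycolysis and hypoxia list were then 0.19 and 0.31, those of cytokines and chemokines 0.64 and 1.24, and those of the progenitor and stem list -0.74 and -0.87. The control median of the inhibitory receptor list went from 0.57 to 0.23 and that of the exhaustion factors from 0.74 to 0.36. Rgs16 stayed 2.05-fold and 2.42-fold higher, Csf1 2.34-fold and 2.77-fold, Tnfrsf4 1.79-fold and 2.68-fold, Prf1 1.56-fold and 1.79-fold and Ccl3 2.17-fold and 3.75-fold. Nrgn was at 1.12-fold and 1.14-fold and Tpi1 at 1.04-fold and 1.11-fold. The type I interferon list had medians of -0.39 and -0.04.

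Shares of cells with a transcript were compared at 5500 UMIs, beside naive-like barcodes as a comparison. Unlike the other resting barcodes, the naive-like ones were chosen without a resting term and can include cycling cells and members. The naive-like barcodes are not a clean measure of free RNA, since Gzmb was detected in 56.9% and 77.6% of them. Their Prf1 level in the control library was 224 CPM, against 133 CPM in the other resting barcodes. Rgs16 was detected in 81.2% of control members, 21.3% of the other resting and 22.2% of the naive-like barcodes. The same gene was in 77.7%, 25.9% and 17.0% of NK-depleted barcodes. Csf1 was in 35.6% of control members and 34.4% of NK-depleted members, against 8.87% and 5.07% of naive-like barcodes. For Tnfrsf4 the shares of members were 38.4% and 45.7%, against 14.2% and 10.6%. Prf1, by contrast, was also found in 38.3% and 42.1% of naive-like barcodes, against 79.8% and 86.2% of members. Tox was in 27.9% of control members and 13.2% of NK-depleted members, close to the 29.1% and 12.3% of other resting barcodes and the 22.5% and 13.6% of naive-like ones. Without thinning, Rgs16 was detected in 92.2% and 88.7% of members and Tox in 47.0% and 26.6%.

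Members were not alike in the chemokines and cytokines they carried. The 10% of members with the most UMIs of a gene (51 control and 38 NK-depleted barcodes) held 76.4% and 78.2% of all Ccl3 UMIs, 57.8% and 58.0% of Ifng UMIs and 98.9% and 100% of Ccl1 UMIs. A control member carried up to 414 UMIs of Ccl3, 1206 of Ccl4 and 1006 of Ifng. For Rgs16 the highest 10% held 29.3% and 32.7%, and for Ctla4 29.7% and 31.5%. Ccl3, Ccl4 and Ifng went together across members, with Spearman's rank correlations of 0.67 and 0.63 for Ccl3 with Ccl4 and 0.44 in both libraries for Ccl3 with Ifng, over 502 and 380 members of 1 library each. The correlation was 0.69 and 0.63 for the interferon genes Isg15 and Ifit3, and -0.05 and 0.04 for Ccl3 with Isg15. Csf1 with Tnfrsf4 gave 0.03 and 0.15. These values describe cells that share a library and differ in depth.

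The 10% of members highest in Ccl3 differed in other genes too. Having been picked by Ccl3, they had 4057 CPM of it in the control library against 149 CPM in the remaining members, and 4100 against 145 CPM in the NK-depleted library. Ifng was at 3507 against 507 CPM and 3452 against 511 CPM. Nr4a3, an early T cell receptor response gene, was at 160 against 53.0 CPM and 263 against 46.0 CPM. Xcl1, a chemokine that draws cross-presenting dendritic cells, was at 664 against 77.3 CPM and 145 against 23.8 CPM. Csf1 was at 167 against 100 CPM and 149 against 84.2 CPM, and Tox at 54.0 against 69.2 CPM and 29.0 against 29.9 CPM. Median UMIs were close, at 13953 against 14408 and 12665.5 against 11732.5. At the other end, 222 control members and 173 NK-depleted members had no Ccl3 UMI at all.

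**Figure D4:**
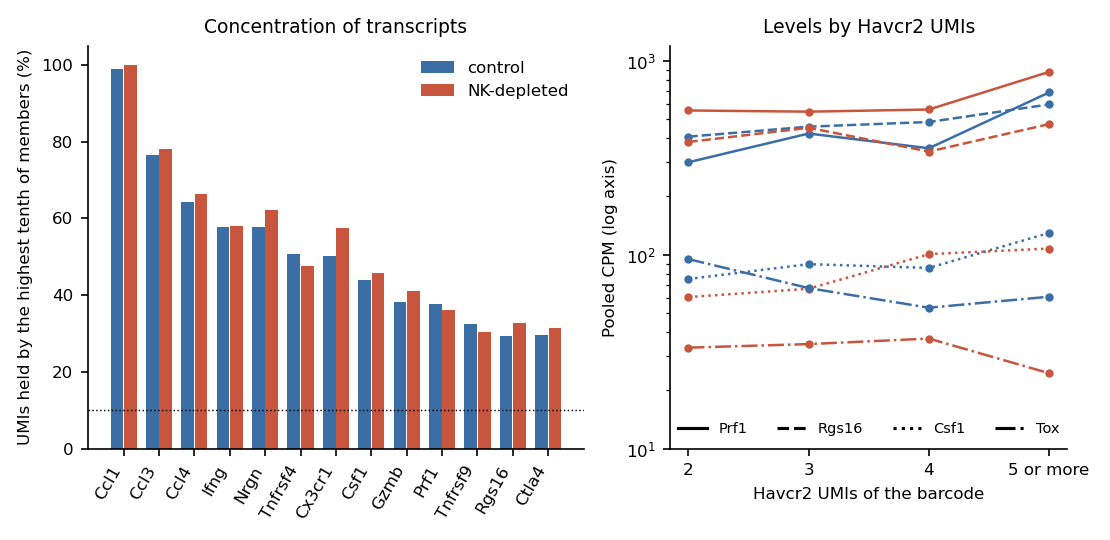
Left, percent of a gene's UMIs held by the highest 10% of members, for 13 genes and both libraries, with a dotted line at 10%, the value of an even spread. Right, pooled CPM (log axis) of Prf1, Rgs16, Csf1 and Tox in members with 2, 3, 4 and 5 or more Havcr2 UMIs, control in blue and NK-depleted in red. The Ccl3 bars reach 76.4% and 78.2% against 29.3% and 32.7% for Rgs16, and Prf1 goes from 300 to 687 CPM and from 555 to 877 CPM between the lowest and highest Havcr2 class.

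More Havcr2 went with more Prf1. From 2 to 3, 4 and at least 5 Havcr2 UMIs, Prf1 stood at 300, 422, 354 and 687 CPM in the control library and at 555, 547, 561 and 877 CPM in the NK-depleted library, so that the step lay at the top class. Csf1 stood at 75.03, 89.5, 85.6 and 130 CPM and at 60.6, 66.8, 101 and 108 CPM. Rgs16 went from 407 to 596 CPM and from 382 to 472 CPM, with 341 CPM in the NK-depleted class of 4. Tox did not follow, at 95, 67.4, 53.4 and 60.8 CPM and at 33.2, 34.6, 37.0 and 24.5 CPM. Median UMIs also differed, from 13374 to 15659 and from 10633.5 to 13270 between the lowest and highest class, and the rank correlation between Havcr2 UMIs and total UMIs was 0.19 and 0.33. The part of depth in these steps was not tested.

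Barcodes just outside the thresholds were compared with those just inside, as values with no test. With exactly 1 Havcr2 UMI and the other terms met (157 and 129 barcodes), Rgs16 stood at 395 and 250 CPM, against 407 and 382 CPM at exactly 2. Csf1 stood at 95.3 and 58.6 CPM outside, against 75.03 and 60.6 CPM inside. Ccl3 was lower outside, at 199 and 78.7 CPM against 503 and 185 CPM, and Ifng stood at 383 and 379 CPM outside against 1011 and 398 CPM inside. At the Lag3 threshold Ccl3 was higher outside. Barcodes with exactly 1 Lag3 UMI (21 and 31) had 2261 and 979 CPM of Ccl3, against 324 and 241 CPM in those with 2 (27 and 25). Ifng there was at 5235 and 897 CPM outside and at 840 and 849 CPM inside. At the granzyme limit 6 and 13 barcodes lay between 30 and 40 UMIs per 10000 and 6 and 7 between 40 and 50, with Prf1 at 724 and 718 CPM inside and 701 and 630 CPM outside. Other genes differed over so few barcodes, with Csf1 at 108 CPM inside and 248 CPM outside in the control library, and Rgs16 at 239 and 490 CPM and Ccl3 at 210 and 23.4 CPM in the NK-depleted library.

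Rgs16 and Csf1 differed between the other receptor combinations among resting cells. Barcodes below the rule's threshold for all 3 receptors (1160 and 1378) had 16.7 and 24.8 CPM of Rgs16, and those past it for Pdcd1 and Lag3 but not Havcr2 (826 and 337) had 209 and 213 CPM. Csf1 stood at 5.06 and 3.88 CPM in the first and at 52.4 and 55.0 CPM in the second. The members had 523 and 430 CPM of Rgs16 and 107 and 90.7 CPM of Csf1. In the few barcodes past it for Pdcd1 and Havcr2 but with fewer than 2 Lag3 UMIs (34 and 61), Ccl3 reached 3119 and 919 CPM and Ifng 5923 and 1493 CPM, while Rgs16 was at 271 and 258 CPM. Barcodes past the threshold for Havcr2 alone (14 and 24) had 31.5 and 54.5 CPM of Rgs16. Those past it for Havcr2 and Lag3 but without Pdcd1 (41 and 46) had 555 and 440 CPM.

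Progenitor exhausted-like cells, defined by Pdcd1 and Slamf6 without Havcr2 among resting barcodes (406 and 140), were the first neighbour compared. Of 5110 genes, 228 (4.46%) were at least 1.5-fold higher in members in both libraries and 210 (4.11%) lower. Prf1 stood at 526 against 101 CPM in the control library (5.20-fold, 4.73 to 5.72) and at 712 against 97.5 CPM in the NK-depleted library (7.30-fold, 6.17 to 8.71). Rgs16 was 6.21-fold and 3.82-fold higher, Csf1 5.45-fold and 3.43-fold and Ccl3 13.2-fold and 4.56-fold. Areg and Il1r2 were among the genes with the largest ratios, along with Gzmd and Gzme, whose near-identical sequences make their separate counts uncertain. Tcf7, at 19.9 against 116 CPM and 12.5 against 135 CPM, and Dapl1 led the lower genes. Cxcl10, a chemokine for CXCR3-bearing cells, was lower as well, at 35.1 against 158 CPM and 43.1 against 201 CPM. Tox was at 67.7 CPM against 91.97 CPM (ratio 0.736, 0.648 to 0.836) and at 29.8 against 48.7 CPM (0.611, 0.457 to 0.823), below the progenitor level in both libraries.

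Cycling cells that met all other terms of the rule were more numerous than the members, with 1209 and 1456 barcodes. Only 6 of 5265 genes (0.114%) were at least 1.5-fold higher in members in both libraries, and 397 (7.54%) were lower. The 6 were Kdm5b, Sdcbp2, Styk1, Wdr95, Ifi204 and Ifit3, of which Ifit3, an interferon-induced gene that shares sequence with Ifit3b, stood at 404 against 257 CPM and 246 against 163 CPM. The lower genes were led by Hist1h2af, Esco2, Hist1h3b, Nek2 and Bub1, all of DNA replication or mitosis. Prf1 was at ratios of 0.840 and 1.07, Rgs16 at 1.19 and 1.48, Csf1 at 1.44 and 1.87, and Tox at 1.04 and 1.08. Ccl3 was at 1.02 and 1.77. Cycling barcodes had medians of 25108 and 20951.5 UMIs, and a deeper barcode is more likely to show a UMI of Mki67 or Top2a. Barcodes over the granzyme C and F limit that met every other term were few (19 and 71). They had 666 and 1091 CPM of Prf1, 195 and 100 CPM of Csf1 and 759 and 138 CPM of Ccl3.

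Within the members, 61 of 5473 genes (1.11%) were at least 1.5-fold higher after NK depletion than in the control library and 75 (1.37%) lower. The other resting barcodes had 50 of 5528 (0.904%) higher and 208 (3.76%) lower. There, scaling by TMM or median-of-ratios factors moved every log2 value up by 0.11 and the higher share of the called genes from 19.4% to 38.1% or 37.7%. The members' share went from 44.9% to 52.3% under either. The difference between the libraries itself differed by at least 1.5-fold between members and other resting barcodes for 104 of 5218 genes, in the higher direction for 81 (1.55%) and in the lower for 23 (0.441%). The higher share of these was 77.9%, and 57.4% or 58.1% under the other scalings.

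**Figure D5:**
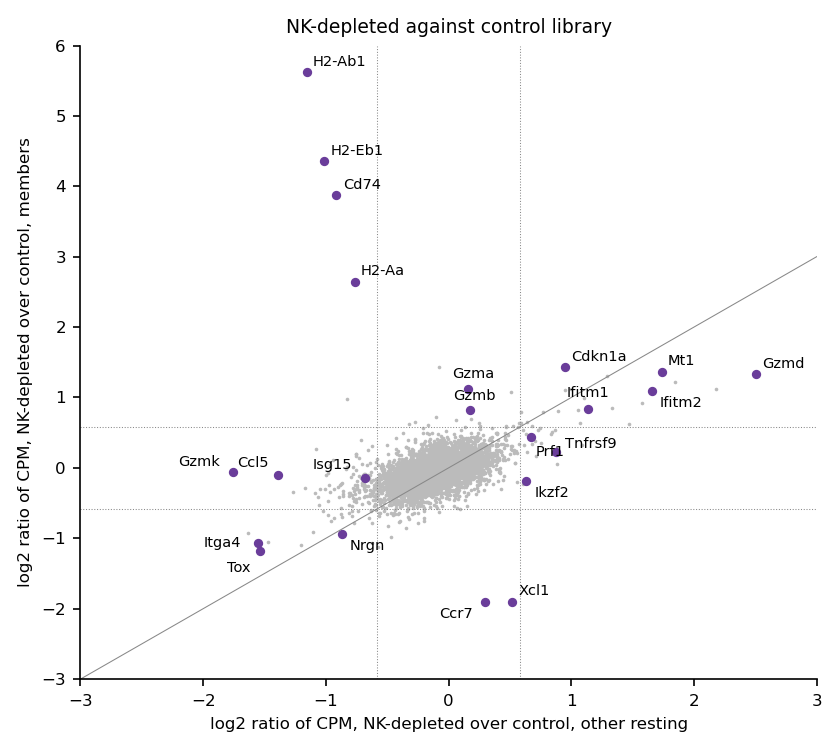
Log2 ratio of the NK-depleted over the control library for each measured gene, in the other resting barcodes on the x axis and in the members on the y axis. Gzma and Gzmb lie above the diagonal, at 2.18-fold and 1.76-fold in members. Xcl1 lies far below it at a ratio of 0.268, and the MHC class II genes at the top rest on few barcodes.

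Of 15 granule genes 4 were higher in NK-depleted members than in control members and 0 lower, and of 9 cytokines and chemokines 0 were higher and 1 lower. Gzmb was at 2397 CPM in control members and 4222 CPM in NK-depleted members (1.76-fold, 1.73 to 1.80), against a ratio of 1.13 in the other resting barcodes. Gzma was at 220 and 480 CPM (2.18-fold, 2.05 to 2.32), with 93.2% and 91.1% of its UMIs in the highest 10% of members. Both depended on how members were found. Among members found on thinned counts the log2 ratio of Gzmb was 0.56 in place of 0.82, under the 1.5-fold threshold, and that of Gzma 0.16 in place of 1.13. Maf was at 36.5 and 76.8 CPM (2.10-fold, 1.80 to 2.45) and at a ratio of 0.993 in the other resting barcodes. It had 70.8% and 65.3% of its UMIs in the highest 10% of members. Its log2 ratio in members lay between 0.92 and 1.13 over all alternatives. Prf1 was 1.35-fold higher in members and 1.59-fold in the other resting barcodes. Ifng and Ccl3 were at ratios of 1.01 and 1.03, although among members found on thinned counts the log2 ratio of Ccl3 was -0.97. Csf1 was at 0.848, Rgs16 at 0.823 and Tnfrsf4 at 1.32.

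Tox, which the marker check did not find raised, was lower in the NK-depleted library in members, at 67.7 and 29.8 CPM (ratio 0.440, 0.365 to 0.527). It was lower in the other resting barcodes too, at a ratio of 0.346. Over the alternatives its log2 ratio in members lay between -1.29 and -1.06. Itga4, the alpha 4 integrin, was at 123 and 58.6 CPM in members (ratio 0.477) and at 0.341 in the other resting barcodes. Nrgn was at ratios of 0.523 and 0.547 and Iigp1 at 0.480 and 0.361. Of the type I interferon response genes, 5 of 21 were lower and 0 higher in members, and 13 of 23 lower and 0 higher in the other resting barcodes. Isg15 was at a ratio of 0.909 in members and 0.624 in the others.

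Part of the glycolysis list was higher in the NK-depleted library, 8 of 22 genes and 0 lower in members, and 4 of 20 and 0 lower in the other resting barcodes. The metallothionein Mt1, a metal-binding stress protein, was at 61.1 and 158 CPM in members (2.58-fold) and at a ratio of 3.33 in the other resting barcodes. Cdkn1a, the cell cycle inhibitor p21, was at 29.1 and 78.4 CPM (2.70-fold) and at 1.93. The heat shock and dissociation list had 0 of 13 higher and 1 lower in members. Of the glycolytic enzymes, Tpi1 was 1.58-fold and Pgk1 1.55-fold higher in members. All 3 measured Ifitm genes, which encode membrane proteins that block virus entry, were higher in members. Ifitm1 stood at 756 and 1346 CPM and Ifitm2 at 261 and 557 CPM. Their ratios in the other resting barcodes were 2.19 for Ifitm1 and 3.15 for Ifitm2.

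A few genes moved in 1 population more than in the other. Xcl1 was at 135 and 36.1 CPM in members (ratio 0.268, 0.228 to 0.314) but at a ratio of 1.43 in the other resting barcodes, and its log2 ratio in members was -1.90, between -2.54 with at least 3 UMIs of Havcr2 and Lag3 and -0.99 on thinned counts. Ccl5 was at 2725 and 2534 CPM in members and at 4474 and 1712 CPM in the other resting barcodes, so that members lay below them in the control library and above them in the NK-depleted library. With the others weighted to the members' UMIs the control log2 ratio of Ccl5 was -0.12 in place of -0.72, and that of the NK-depleted library 1.02 in place of 0.57. Gzmk, a granzyme of memory-like cells, was at 66.2 and 63.3 CPM in members and at 117 and 34.6 CPM in the others, and its control log2 ratio of -0.82 was -0.22 with the same weighting. Tnfrsf9 was 1.17-fold higher in members and 1.84-fold in the others. Ccr7 was at 58.5 and 15.7 CPM in members, a log2 ratio of -1.90 that was -0.90 without the MHC class II barcodes and -0.02 among members found on thinned counts. Tyrobp, an adaptor of NK cell and myeloid receptors, was at 16.3 and 32.1 CPM, and its log2 ratio of 0.98 was 0.01 without those barcodes. Fscn1, an actin-bundling protein of mature dendritic cells, was at 29.4 and 1.18 CPM with those barcodes and at 0.622 CPM and 0 without them.

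T cell receptor beta V segments gave a glimpse of clonal makeup in few members, since a segment led with at least 2 UMIs in 72 control and 46 NK-depleted members. Trbv13-1 led in 20.8% of those control members (15 of 72, 12.2% to 32.0%) against 9.95% of the other resting barcodes, and in 6.52% (3 of 46, 1.37% to 17.9%) against 5.48% in the NK-depleted library. Trbv2 led in 16.7% (8.92% to 27.3%) and 32.6% (19.5% to 48.0%) of members, against 9.95% and 26.7% of the other resting barcodes. The intervals of members and other barcodes overlapped in each case. With 1 UMI enough, in 241 and 132 members, Trbv13-1 led in 21.2% of control members (16.2% to 26.9%). In the other resting control barcodes it led in 8.76% (6.995% to 10.8%). The NK-depleted library had 9.09% against 6.98%. Cells of 1 clone are not independent, so that these intervals are too narrow, and the differences were not tested. Trbv2 then led in 7.88% against 6.21% and in 16.7% against 10.6%. Named after their values were seen, Trbv26 stood higher in NK-depleted members at that setting, at 16.7% (10.7% to 24.1%) against 5.81% (4.19% to 7.83%), and Trbv12-1, Trbv29 and Trbv3 lower in control members, at 2.49% against 8.09%, 1.66% against 8.76% and 3.32% against 8.54%. Since no source used here gives the number of mice, clones expanded in 1 mouse cannot be told apart from the treatment.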

How the data were processed

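Sorted CD8+ cells of MC38 tumours, from control mice and from mice depleted of NK cells, were measured with the 10x Genomics single cell 5' chemistry, per the labels' protocols, with 1 library per group. The deposited matrices give raw UMI counts of 32285 genes in each barcode. The authors made these counts with Cell Ranger (version 6.1.2 in the file headers), per the file headers, and did not normalize them. The submitters' processing notes name the mm10 build and Seurat 4.0.6. Barcodes were kept with at least 500 genes and a mitochondrial share under 10%, which left 7163 and 8353 of 7866 and 10111. The matrices carry no cell annotation, and no clustering and no doublet caller were used. Members, gene lists and markers were chosen with earlier results of these data known.

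Counts were summed over barcodes and divided by the population's total UMIs to give CPM. Genes with at least 20 CPM in a compared population were kept, a ratio past 1.5 was called, and the 12 genes of the rule were left out. Ratios have exact conditional binomial 95% intervals and shares exact Clopper-Pearson ones, both for counting error only. Shares of cells with a UMI were compared after thinning each barcode to 5500 UMIs. Total UMIs of the members were 8155118 and 5103659, so that a gene at 20 CPM in them rests on few counts. Of the genes the text names, up to 12 with the largest and 12 with the smallest ratios come from each comparison, up to 4 from each of 25 gene lists, and a fixed set of checkpoint, cytokine and effector genes completes them. Against each neighbouring population the genes with the largest and smallest ratios in both libraries are named. Cxcr3, Eomes, Il7r, Ldha, Lef1, Pgk1, Tnfrsf18, Zbtb32 and Zeb2 lie outside these rules and were chosen after their values were seen. Alternatives were other scalings (edgeR 4.0.16 TMM factors, used without a test, and median-of-ratios factors), minimums, folds, comparators, rule thresholds and depths. Scripts ran in Python 3.11.15 with numpy 2.4.6, scipy 1.17.1 and pandas 2.3.3 and in R 4.3.3, and the ratio and share functions were tested on simulated data. Naive-like barcodes were defined by Ccr7 and S1pr1, with no resting term, after the data were seen. Some results are not reported here.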

Additional observations from a re-analysis of the deposited data

Results flagged for a closer look

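For 6 genes the members lay on opposite sides of the other resting barcodes in the 2 libraries, each time by more than 1.5-fold. With 1 library per group the difference was not tested. The values are log2 ratios of members over other resting barcodes. Gzmk was at -0.82 in the control and 0.87 in the NK-depleted library, a difference of 1.69. In the control library it was no longer past 1.5-fold with the others weighted to the members' UMIs, at -0.22, or against all other CD3+CD8+ barcodes, at -0.44. Osgin1, a stress-induced gene, was at -0.67 and 0.67, a difference of 1.35. Its control value was -0.30 with the weighting, and against all other barcodes it was at -0.50 and 0.49, within 1.5-fold in both libraries.

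The other 4 genes were those of MHC class II. The difference between the libraries was 6.78 for H2-Ab1 (-4.14 and 2.64), 3.41 for H2-Aa (-1.33 and 2.08), 5.37 for H2-Eb1 (-2.97 and 2.41) and 4.79 for Cd74 (-2.40 and 2.39). Over the 4 genes together, 4 control members held 78.7% of the members' UMIs and 6 NK-depleted members held 97.8%. H2-Ab1 was low in control members even with these barcodes, at 2.45 CPM. Among the other resting barcodes, 31 of 2970 control and 18 of 2557 NK-depleted ones also reached 10 MHC class II UMIs. Without such barcodes H2-Ab1 stood at 1.74 CPM in control members and 4.90 CPM in NK-depleted members, and Cd74 at 5.35 and 6.32 CPM. In the other resting control barcodes H2-Ab1 then stood at 3.19 in place of 43.2 CPM, and Cd74 at 7.42 in place of 97.1 CPM. Cd74 in the other resting NK-depleted barcodes stood at 7.15 in place of 51.5 CPM.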

How the results depend on the processing

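The share of members of CD3+CD8+ barcodes was lower in the NK-depleted library under every alternative tried, by 1.43 to 3.31 percentage points against 2.62 as reported. With both resting barcodes as denominator and the thinned depth, the shares lay closest together, at 8.31% and 7.84%. The shares were 5.26% and 3.83% at the thinned depth, 9.55% and 6.23% with at least 1 Havcr2 UMI, 5.67% and 3.50% with at least 3, and 14.5% and 12.9% of resting barcodes. Without the granzyme limit the NK-depleted share was 5.52%. The number of genes past the fold moved with the thresholds. Of members against other resting barcodes it was 707 and 637 as reported, 1324 and 1342 at a minimum of 5 CPM, 383 and 346 at 50 CPM, 1737 and 1665 at a looser fold, and 256 and 217 at a fold of 2. Against all other CD3+CD8+ barcodes it was 466 and 684. Between the libraries within members it was 136 as reported and 583, 53, 770 and 33 in the same order of minimums and folds. Other scalings and leaving out barcodes with MHC class II, with most UMIs or shared by the libraries left these counts within 1.5-fold. Trbv2 led in 7.88% and 16.7% of members when 1 UMI was enough.

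Reversals beyond a call were few, at 26 of the alternatives' values for genes, with 5026 on the same side, 177 no longer past the fold and 92 newly past it. Of alternative values of list medians 858 moved by less than 0.25 log2 and 33 by more. Against all other CD3+CD8+ barcodes the S phase median changed sign, from 0.23 and 0.27 to -1.12 and -1.39, and so did the cholesterol and lipid synthesis median, from 0.20 and 0.33 to -0.07 and -0.15. Other sign changes were of medians under 1.5-fold. Against all other CD3+CD8+ barcodes the log2 ratio in the control library was -0.16 for Cdkn1a, -0.74 for Dut, -0.75 for Gzmd, -0.64 for Gzme and -2.49 for Ube2c. In the NK-depleted library it was -0.71 for Dut, -0.24 for Mt2, -0.17 for Myo10, -3.39 for Pclaf and -1.79 for Ube2c. That comparator holds cycling cells by construction. With the other resting barcodes weighted to the members' UMIs, Gzmd was at -0.34 in the control library. Without MHC class II barcodes, members against other resting barcodes gave -1.33 for Fscn1 and -0.020 for Ramp3 in the control library, and -0.18 for Cd74, -1.53 for H2-Aa and -0.91 for H2-Eb1 in the NK-depleted library. Between the libraries they gave -0.29 for H2-Aa and 0.21 for Ramp3 in members, 0.55 for H2-Aa, 0.32 for H2-Ab1 and 0.26 for H2-Eb1 in the other resting barcodes, and -0.84 for H2-Aa in the difference of both. Among members found on thinned counts the log2 ratio between the libraries was -1.76 for Cd74, -1.49 for H2-Aa, -0.49 for H2-Eb1 and 0.071 for Ramp3. No paired analysis was possible because each group has 1 library. The cause of the other changes was not tested.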
